A study of Mus musculus with 12 samples.

Results

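The cytochrome P450 genes described here are the 71 genes of the array, among 27962 gene names, whose name is Cyp followed by a digit. Membership was set by name and not by measured values, though the family was chosen with earlier results of these data known. Of the 41174 probes, 105 report these genes. RNA came from NR-S1, a mouse squamous cell carcinoma transplanted into the hind leg of male C3H/HeMsNrs mice, and tumour tissue was cut out by laser microdissection. There were 6 RNAs, each from its own condition: the unirradiated primary tumour, a primary given 8 Gy of gamma rays, a primary given 5 Gy of carbon ions, and the lung metastases of each of these 3 treatment groups. The leg tumour was irradiated at a diameter of 7.5 mm. Primaries were taken 1 week and metastases 2 weeks after the tumour reached that size, and primaries and metastases came from different mice. The irradiated site was the leg, so a metastasis is called here by the treatment of the group it came from. Neither the age of the mice nor their number behind each RNA was stated.

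Cytochrome P450 enzymes are haem proteins that insert an oxygen atom into their substrates, with electrons that most of them receive from P450 reductase in the endoplasmic reticulum. Families Cyp1 to Cyp3 mostly oxidise foreign chemicals and are best known from liver, family Cyp4 hydroxylates fatty acids and eicosanoids, and the remaining families make or break down steroids, sterols, vitamin D and retinoic acid. In lung, non-ciliated club cells of the small airways are rich in P450s, among them Cyp2f2, which activates naphthalene to a toxic epoxide.

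Pairs of RNAs were hybridised together on 12 two-colour arrays, as 6 dye swaps of 2 arrays each. A log2 ratio is given as its mean ± SD over the 2 dye orientations (n = 2 arrays). A ratio between metastases draws on 2 arrays for each metastasis, and its SD is over 2 differences matched by dye. Either SD is technical, since each condition had 1 RNA, and no test between conditions was possible. A gene is called higher or lower where its ratio was at least 2-fold in the same direction in both orientations, which is 1 on the log2 scale. A call can therefore be lost with a mean beyond 1, where 1 orientation falls short. A gene counts as measured if, on each of the 2 arrays, 1 or both of the RNAs gave its probe a signal well above background. Between metastases this was required of 1 or both metastases in each dye orientation. A level is the log2 signal of 1 dye channel after normalisation, and each level is compared only with levels of the same probe. The 12 arrays had 53.8% to 68.8% of probes well above background in a channel, and both arrays of each swap lay on the same slide, so slide and comparison cannot be told apart. In bulk RNA of this kind, fewer cells of a type and less RNA per cell cannot be told apart either. Each of 12 keratinocyte markers was well above background in at least 1 measurement of every RNA, with a summed level of 19.2 to 19.9. Over the unirradiated primary only Krt16 was called, higher in the gamma-group metastasis (1.31 ± 0.42) and lower in the carbon-irradiated primary (-1.51 ± 0.35). Krt14 had an SD of up to 1.42 between dye orientations, so the sum does not show equal marker content. Skeletal muscle markers were lower than in the unirradiated primary for 13, 13 and 14 of 14 genes in the unirradiated, gamma-group and carbon-group metastasis. Their median log2 ratios there were -3.49, -3.7 and -3.56. They were lower for 13 of 14 in the gamma-irradiated primary and for 6 of 14 in the carbon-irradiated primary, with medians of -2.25 and -1.0. In the direct comparison, 9 of 14 were higher after carbon ions than after gamma rays. Their part in the P450 ratios was not tested.

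Most P450 genes were not detected in this carcinoma, or only in some RNAs. Of the 71 members, 21 were well above background in all 24 measurements, 21 in none and 29 in some. The metastases held more of them above background than the primaries. Shares over all probes leaned the same way, with 58.4% to 68.8% above background in the channels of a metastasis and 53.8% to 61.5% in those of a primary. In every measurement of the RNA, 34, 39 and 33 members were detected in the unirradiated, gamma-group and carbon-group metastasis, against 21, 25 and 25 in the unirradiated, gamma-irradiated and carbon-irradiated primary. The unirradiated primary was measured 10 times, the irradiated primaries 4 times each and the metastases 2 times each, and a larger number of measurements makes that requirement stricter. Members that were not above background anywhere included Cyp1a2, Cyp7a1, the first enzyme of bile acid synthesis, Cyp8b1, and the steroid-making Cyp11a1, Cyp11b2, Cyp19a1 and Cyp21a1. Of 12 hepatocyte markers, only 1 to 5 were measured in a comparison, and none of these was called. Albumin (Alb1), transthyretin (Ttr) and Apoa1 were not above background in any RNA.

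Against the unirradiated primary, P450 genes were higher in all 3 metastases. In the unirradiated metastasis 11 of 37 measured members were higher and 1 lower, 29.7% and 2.7%, where 10.4% and 1.68% of all 17229 measured genes were. In the gamma-group metastasis 9 of 40 were higher and none lower, 22.5%, against 8.80% higher and 1.10% lower of all 17800 genes. In the carbon-group metastasis 8 of 35 were higher and none lower, 22.9%, against 8.19% and 1.02% of 16391 genes. Member medians were 0.11, 0.22 and 0.30 on the log2 scale in these comparisons, beside 0.05, 0.06 and 0.06 over all measured genes, so the shift lay in a minority of the members. Any gene could count as measured on the signal of the metastasis alone, which favours a higher call. With both RNAs required above background, 5 in place of 9 members were called in the gamma-group and 5 in place of 8 in the carbon-group metastasis. In the unirradiated metastasis Cyp1b1 and Cyp2a5 then no longer counted as measured. The shares of all genes given here hold for the main filter only. In total 17 members were called in at least 1 of 9 comparisons, and they are shown in the plot of ratios on each array. Markers of other cell types were higher in the same RNAs. Macrophage markers were higher for 9, 5 and 4 of 9 genes in the unirradiated, gamma-group and carbon-group metastasis, and endothelial markers for 8, 5 and 5 of 9. Summed levels were 15.3 to 16.5 for macrophages and 14.6 to 15.9 for endothelium in the metastases, against 13.8 to 14.1 and 13.0 to 13.1 in the unirradiated primary. Their part in the P450 ratios was not tested.

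**Figure D1:**
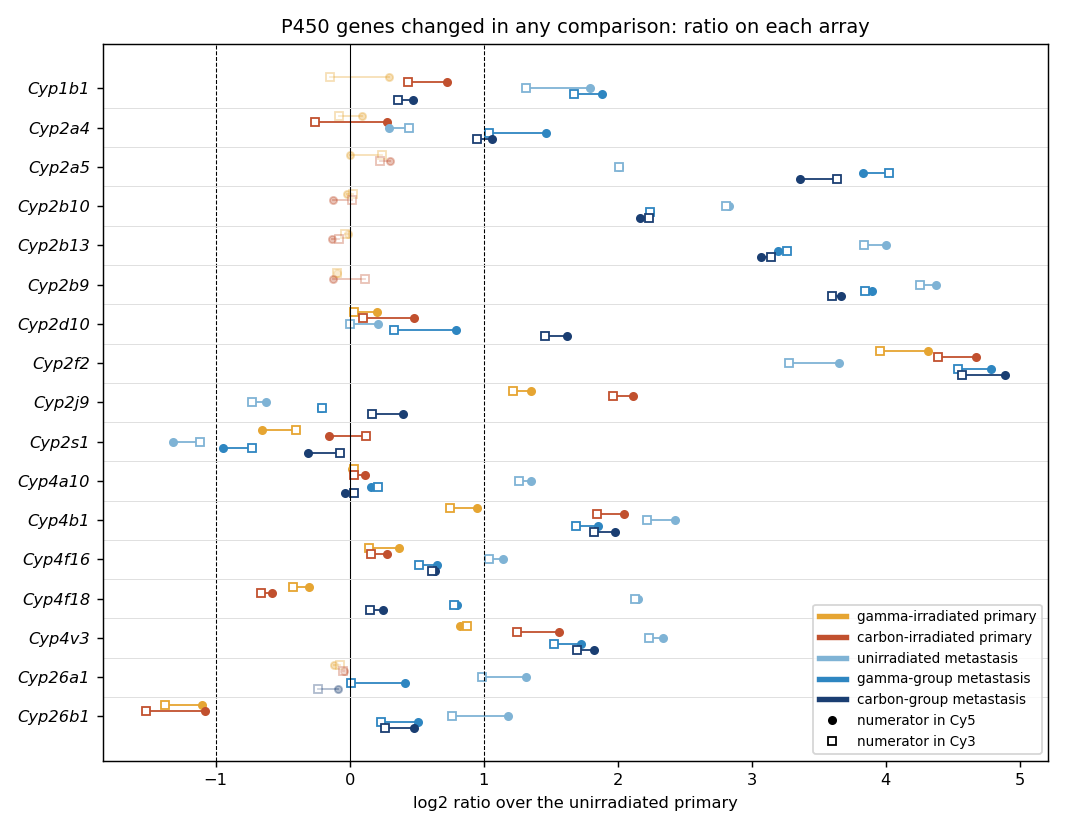
Log2 ratio over the unirradiated primary (x axis) for the 17 P450 genes called in any comparison, with a filled circle for the array with the numerator RNA in Cy5 and an open square for the array with it in Cy3, joined by a line; dashed lines mark 2-fold, and pale symbols are genes not measured in that comparison. Cyp2f2 lies above 3 in all 5 RNAs. Cyp2a5, Cyp2b9, Cyp2b10 and Cyp2b13 have a mean of 2 or above over both arrays in the 3 metastases only, and were not measured in the irradiated primaries.

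Irradiated primaries held fewer called members. After gamma rays 2 of 27 measured members were higher and 1 lower, 7.41% and 3.7%, against 2.22% and 1.25% of all 15679 genes. After carbon ions 4 of 30 were higher and 1 lower, 13.3% and 3.33%, against 3.88% and 1.07% of 15740 genes. Member medians were 0.05 and 0.09, beside 0.02 over all genes in both comparisons. In the direct comparison of carbon ions with gamma rays 2 of 27 were higher and none lower, 7.41%, against 0.879% and 0.159% of 15130 genes. Markers of T and natural killer cells were higher for 4 of 10 measured genes after gamma rays and 8 of 11 after carbon ions, with a summed level of 9.92 to 10.2 in the unirradiated primary, 10.9 to 11.1 after gamma rays and 11.6 to 11.7 after carbon ions. Their part in the ratios of the irradiated primaries was not tested.

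The largest ratio of any member in any comparison was that of Cyp2f2, the naphthalene-activating enzyme of airway club cells. It was higher than in the unirradiated primary in all 5 other RNAs, the irradiated leg tumours included. The ratios of the 2 orientations were 3.65 and 3.28 in the unirradiated metastasis, 4.79 and 4.54 in the gamma-group metastasis, and 4.89 and 4.57 in the carbon-group metastasis. They were 4.31 and 3.96 in the gamma-irradiated primary and 4.68 and 4.39 in the carbon-irradiated primary. No orientation fell below 3, so the smallest ratio was far above the 2-fold limit. The means correspond to 11.0-fold (3.46 ± 0.26), 25.4-fold (4.67 ± 0.17), 26.6-fold (4.73 ± 0.23), 17.6-fold (4.14 ± 0.25) and 23.2-fold (4.54 ± 0.20) in that order.

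Single-channel levels of Cyp2f2 put the RNAs in the order unirradiated primary, unirradiated metastasis, gamma-irradiated primary, carbon-irradiated primary, gamma-group metastasis and carbon-group metastasis. The unirradiated primary read 7.32 to 9.60 over its 10 measurements, with a mean of 8.61 ± 0.78. The unirradiated metastasis read 10.75 and 10.97, the gamma-irradiated primary 12.22 to 12.41, and the carbon-irradiated primary 13.47 to 13.60. The gamma-group metastasis read 13.62 and 13.73 and the carbon-group metastasis 14.17 and 14.23. No neighbouring ranges overlapped, but the gap between the carbon-irradiated primary and the gamma-group metastasis was smaller than the spread within either.

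**Figure D2:**
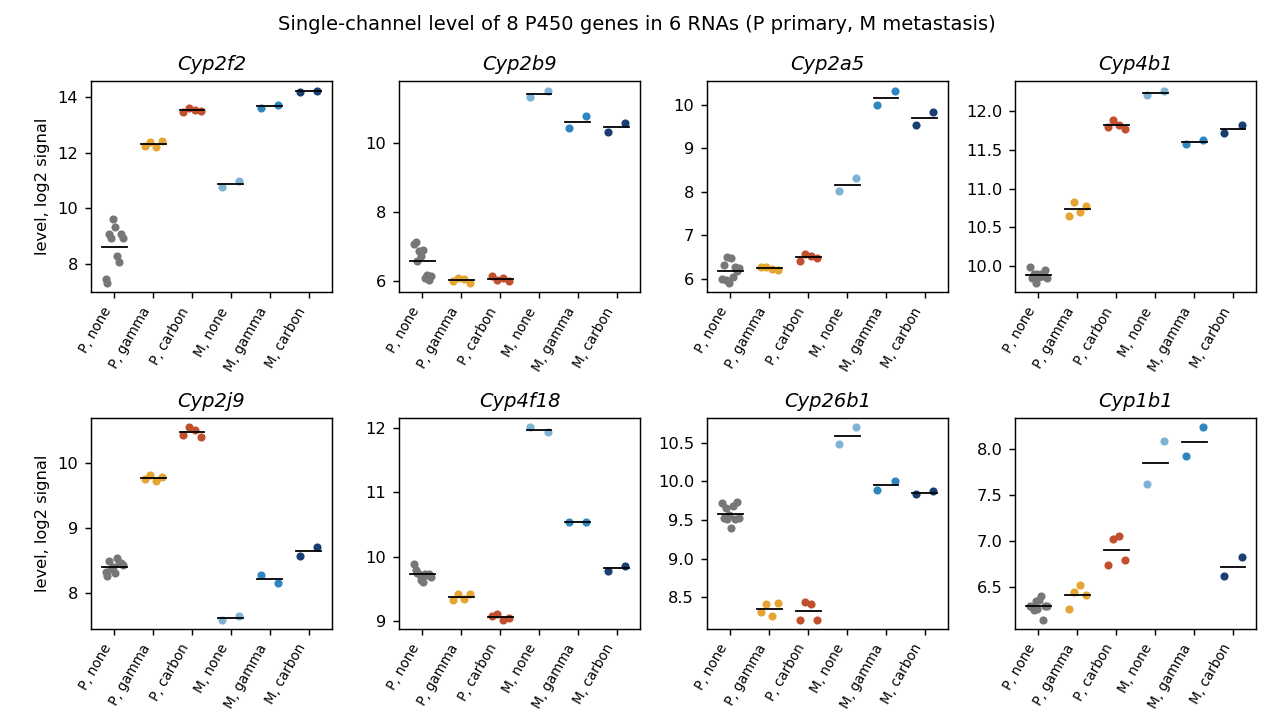
Single-channel level (y axis, log2 signal, scaled separately for each gene) of 8 P450 genes in the 6 RNAs, with 1 point for each measurement and a bar at the mean; P is primary, M metastasis, and none, gamma and carbon give the treatment of the group. Cyp2f2 in the unirradiated primary spreads from 7.32 to 9.60, Cyp2j9 is highest in the 2 irradiated primaries, Cyp26b1 is lowest in them, and Cyp2b9 is high in the 3 metastases.

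The spread of Cyp2f2 in the unirradiated primary followed the RNA that shared the array. This 1 RNA read 7.40 ± 0.11 beside the unirradiated metastasis, 8.18 ± 0.15 beside the gamma-irradiated primary, 9.0 ± 0.11 beside the carbon-irradiated primary, 9.01 ± 0.10 beside the gamma-group metastasis and 9.47 ± 0.19 beside the carbon-group metastasis (n = 2 arrays each). That is also the order of Cyp2f2 in the partner RNAs. The range over partners was 2.07, wider than for 99.92% of 27951 genes, with a median range of 0.13 over all genes and 0.15 over the 71 members. Ratios on different arrays therefore had different denominators. Carbon ions over gamma rays came to 1.20 ± 0.16 on the arrays that compared the primaries directly and to 0.40 through the unirradiated primary. The difference of 0.80 was larger than for 99.64% of 15130 genes, which had an SD of 0.068. The direct call was lost under median centring, where the mean was 1.17 and 1 orientation fell short. The cause of this dependence on the partner was not tested.

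**Figure D3:**
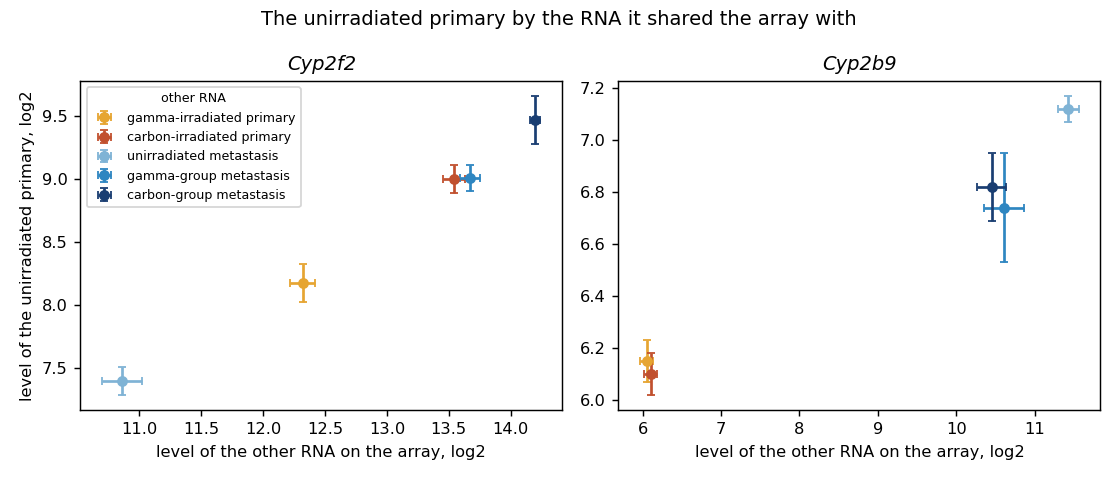
Level of Cyp2f2 (left) and Cyp2b9 (right) in the unirradiated primary (y axis, log2) against the level in the RNA on the same array (x axis, log2), with points at the mean and bars of 1 SD over 2 arrays. The unirradiated primary reads Cyp2f2 between 7.40 and 9.47 in the order of its partners, and Cyp2b9 at 6.74 or more beside the metastases only.

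Lung epithelial markers were higher with Cyp2f2 in the metastases, and few of them were measured in the irradiated primaries. Of 9 club cell markers, 7 of 8 measured were higher in the unirradiated metastasis and 9 of 9 in each of the other two, while none of 2 measured was higher in the gamma-irradiated primary and 1 of 2, Aldh1a7, in the carbon-irradiated primary. Their summed level was 17.3 to 18.1 in the metastases, 9.65 to 9.86 in the irradiated primaries and 9.42 to 12.5 in the unirradiated primary. Scgb1a1, the main secretory protein of club cells, had a ratio of 4.88 ± 0.11, 5.63 ± 0.16 and 5.73 ± 0.30 in the 3 metastases and of -0.02 ± 0.23 in the gamma-irradiated primary. In the carbon-irradiated primary it did not count as measured and read 0.10 ± 0.16. In the unirradiated primary its level also varied with the partner, by 4.67, and it was above background on 6 of 6 arrays shared with a metastasis and 1 of 4 shared with a primary. Scgb3a1, Scgb3a2, Sftpa1, Plunc and Reg3g were not above background in any measurement of either irradiated primary. Markers of alveolar type 2 cells, which make surfactant, were higher for 7 of 8 genes in each metastasis and for none of the 3 measured in each irradiated primary. The part of club cells in the Cyp2f2 ratios was not tested. Aldh1a1, which oxidises retinal to retinoic acid, was high in the same 5 RNAs as Cyp2f2, at 4.16 ± 0.32, 4.58 ± 0.26 and 4.52 ± 0.31 in the metastases, 3.45 ± 0.33 after gamma rays and 4.09 ± 0.21 after carbon ions.

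**Figure D4:**
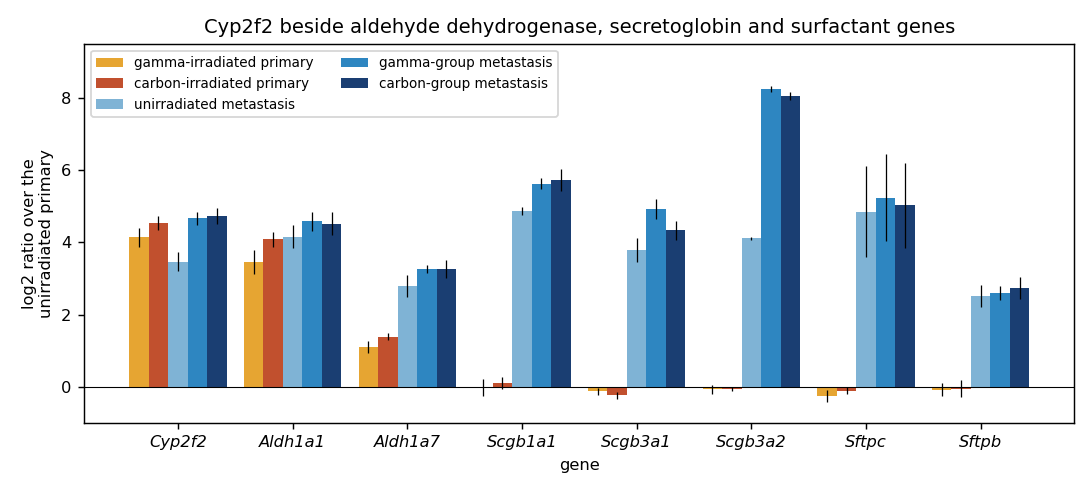
Log2 ratio over the unirradiated primary (y axis) for Cyp2f2, Aldh1a1, Aldh1a7, 3 secretoglobins and 2 surfactant protein genes, as bars of the mean with 1 SD over 2 arrays. Cyp2f2 and Aldh1a1 stand above 3 in all 5 RNAs, whereas Scgb1a1, Scgb3a1, Scgb3a2, Sftpc and Sftpb stand high in the metastases and near 0 in the irradiated primaries. Scgb3a1, Scgb3a2, Sftpc and Sftpb were not measured in the irradiated primaries, nor was Scgb1a1 after carbon ions. Those bars near 0 are therefore not a measured lack of change.

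Cyp2f2 lies on chromosome 7 in a gene cluster that, in the RefSeq order, runs Cyp2s1, Cyp2b10, Cyp2b13, Cyp2b9, Cyp2a4, Cyp2b19, Cyp2g1, Cyp2a5, Cyp2a12 and Cyp2f2. The 3 Cyp2b genes that changed are neighbours there. The start regions of these 3 and of Cyp2f2 are shown because the 4 genes were the most changed of the cluster in the unirradiated metastasis. Each runs from 250 bases before to 50 after the gene start on the + strand of RefSeq's GRCm38.p6. They lie at chr7:27119705-27120004 (Cyp2f2), chr7:26173159-26173458 (Cyp2b9), chr7:26061245-26061544 (Cyp2b13) and chr7:25897408-25897707 (Cyp2b10). Capitals mark matches to 4 short motifs searched on both strands: AGGTCA, the core element bound by nuclear receptors, GCGTG, the core bound by the dioxin receptor, CCAAT and TATAAA.
Cyp2f2: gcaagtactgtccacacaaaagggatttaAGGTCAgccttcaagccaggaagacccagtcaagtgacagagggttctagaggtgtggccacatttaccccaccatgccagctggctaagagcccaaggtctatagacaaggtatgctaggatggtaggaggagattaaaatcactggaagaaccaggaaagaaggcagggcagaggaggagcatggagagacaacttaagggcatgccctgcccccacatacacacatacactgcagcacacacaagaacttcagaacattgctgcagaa
Cyp2b9: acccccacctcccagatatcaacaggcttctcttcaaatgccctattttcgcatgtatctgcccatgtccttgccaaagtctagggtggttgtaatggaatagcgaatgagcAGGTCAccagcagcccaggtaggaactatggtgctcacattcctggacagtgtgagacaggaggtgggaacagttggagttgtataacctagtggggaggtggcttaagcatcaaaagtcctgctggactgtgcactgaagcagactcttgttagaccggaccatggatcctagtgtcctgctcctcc
Cyp2b13: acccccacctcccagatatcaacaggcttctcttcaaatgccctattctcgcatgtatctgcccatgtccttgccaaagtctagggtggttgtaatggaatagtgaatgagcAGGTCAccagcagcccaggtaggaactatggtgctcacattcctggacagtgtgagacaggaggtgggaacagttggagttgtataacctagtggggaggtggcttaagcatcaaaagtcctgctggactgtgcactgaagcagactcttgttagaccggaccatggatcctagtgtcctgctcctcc
Cyp2b10: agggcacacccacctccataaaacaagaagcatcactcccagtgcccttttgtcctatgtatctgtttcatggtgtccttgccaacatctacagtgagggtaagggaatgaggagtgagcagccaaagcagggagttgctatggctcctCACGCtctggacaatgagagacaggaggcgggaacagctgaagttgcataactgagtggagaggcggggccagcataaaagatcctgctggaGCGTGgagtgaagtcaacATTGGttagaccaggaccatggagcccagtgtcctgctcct
AGGTCA was found in Cyp2f2, Cyp2b9 and Cyp2b13, and in 16.0% of 27025 promoters of the same length. GCGTG was found 2 times in Cyp2b10, with 1 match on each strand, and in 32.5% of all promoters. CCAAT was found in Cyp2b10 on the other strand, printed as ATTGG, and in 37.9% of all promoters. TATAAA matched none of the 4 and 14.2% of all promoters, and no matches overlapped. Cyp2b9 and Cyp2b13 were identical at 298 of 300 aligned bases (99.3%), each was 73.2% identical to Cyp2b10, and all 3 were 48.3% to 48.8% identical to Cyp2f2. Letters that match a motif describe the sequence only.

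Of the 4 Cyp2b genes, a subfamily best known for its response to phenobarbital in liver, Cyp2b9, Cyp2b13 and Cyp2b10 were high in the metastases and Cyp2b19 was not. Cyp2b9 had ratios of 4.38 and 4.26 in the unirradiated metastasis, 3.9 and 3.85 in the gamma-group metastasis and 3.67 and 3.60 in the carbon-group metastasis. In the unirradiated and gamma-group metastasis Cyp2b13 had a mean log2 ratio of 3.92 ± 0.12 and 3.23 ± 0.05, and Cyp2b10 of 2.82 ± 0.01 and 2.24 ± 0.00. In the carbon-group metastasis the mean log2 ratios were 3.11 for Cyp2b13, at least 8.53-fold, and 2.2 for Cyp2b10, at least 4.58-fold. A fold given as "at least" is used where the dimmer RNA was not well above background on either array. It sets the brighter level against, on each array, the lowest signal well above background or the dimmer RNA's own level, whichever was higher. All 3 genes were highest in the unirradiated metastasis. Their ratios in the other metastases over that one, taken through the unirradiated primary, were -0.45 to -0.82 and not called. Mean levels in the unirradiated, gamma-group and carbon-group metastasis were 11.43, 10.61 and 10.45 for Cyp2b9. They were 10.5, 9.59 and 9.49 for Cyp2b13, and 9.56, 8.63 and 8.56 for Cyp2b10. The unirradiated primary also read each gene higher beside the unirradiated metastasis, for Cyp2b9 at 7.12 against 6.74 and 6.82, so the denominators differed. For Cyp2b13 in the gamma-group comparison, the unirradiated primary was above background on 1 of 2 arrays.

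In the irradiated primaries these 3 genes were near background. Cyp2b9 and Cyp2b13 were above it in 0 of 4 measurements of either irradiated primary, and Cyp2b10 in 0 of 4 after gamma rays and 1 of 4 after carbon ions. The unirradiated primary was above background for Cyp2b9 on 6 of 6 arrays shared with a metastasis, at 6.59 to 7.15, and on 0 of 4 shared with a primary, at 6.04 to 6.20. For Cyp2b10 those counts were 4 and 0, and for Cyp2b13 3 and 0. Of 17 club, alveolar type 2 and Aldh1a1 marker genes, 7 showed the same 6 and 0. What sets this was not tested. Since the 3 Cyp2b genes are close copies, their probes may share signal. A second probe of Cyp2b10 gave 3.35, 2.62 and 2.63 in the metastases, a second probe of Cyp2b9 gave 1.30 in the unirradiated metastasis, and a second one of Cyp2b13 was not measured there.

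Cyp2a5, which oxidises coumarin and nicotine, was also high in the metastases but in another order. It was not above background in any of the 10 measurements of the unirradiated primary, at 5.91 to 6.50, and was at least 4.03-fold higher in the unirradiated, 15.2-fold in the gamma-group and 10.0-fold in the carbon-group metastasis. Levels there were 8.01 and 8.32, 10.00 and 10.32, and 9.54 and 9.83. Both treated groups lay above both measurements of the unirradiated metastasis, and through the common unirradiated primary the log2 ratios were 1.92 ± 0.14 and 1.49 ± 0.20. Its second probe gave 1.53, 3.23 and 2.85 over the unirradiated primary. Cyp2a4, a near-identical copy with steroid hydroxylase activity, was called higher in the gamma-group metastasis only, at 1.25 ± 0.30, and read 1.06 and 0.95 in the carbon-group metastasis, just outside the limit. Its call rested on 1 of 2 arrays with the primary above background and was lost under median centring, at 1.31. The carbon-group call of Cyp2a5 over the unirradiated metastasis was lost with Agilent's ratio, also at 1.31.

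**Figure D5:**
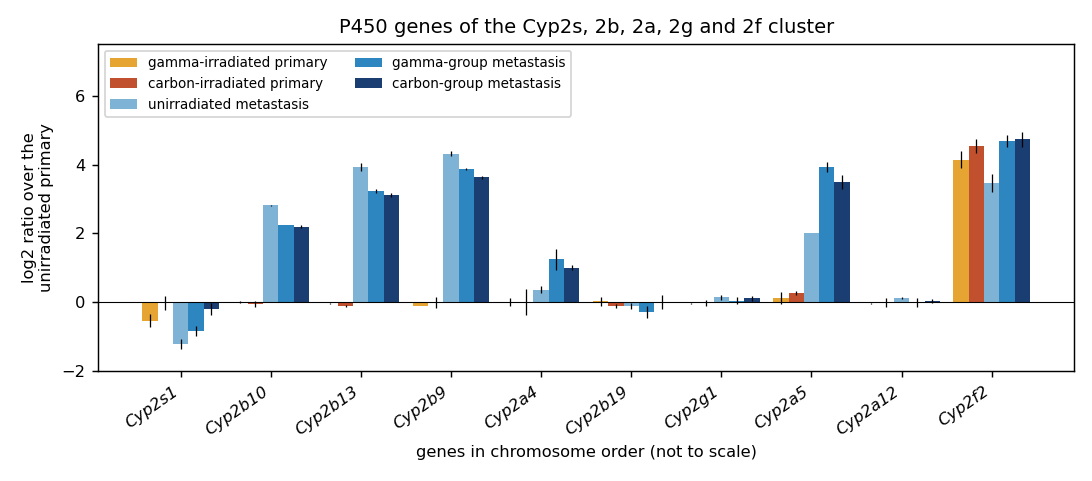
Log2 ratio over the unirradiated primary (y axis) for the 10 P450 genes of the chromosome 7 cluster in chromosome order, not to scale, as bars of the mean with 1 SD over 2 arrays. Cyp2b10, Cyp2b13, Cyp2b9 and Cyp2a5 stand high in the metastases, Cyp2f2 in all 5 RNAs, and Cyp2b19, Cyp2g1 and Cyp2a12 lie near 0. Cyp2g1 and Cyp2a12 were not above background in any measurement.

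Other members of the cluster did not follow. Cyp2g1 and Cyp2a12 were not above background in any measurement, and Cyp2b19 was above it in 11 of 24. Cyp2s1, a P450 of epithelia, was 1 of the members detected throughout, and it was lower in the unirradiated metastasis, at -1.32 and -1.12. In the gamma-group and carbon-group metastases it read -0.84 ± 0.15 and -0.19 ± 0.17. Through the unirradiated primary, Cyp2s1 was higher by 1.03 ± 0.03 in the carbon-group than in the unirradiated metastasis. Its second probe was dim, and neither call held in the mean of its probes, at -0.60 and 0.43, or under median centring, at -1.43 and 0.84. The second call was also lost by the difference of levels, at 0.93.

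Cyp4b1, a lung-rich enzyme that activates furan toxins, was higher in 4 of the 5 RNAs. Its levels were 9.78 to 9.99 in the unirradiated primary, 10.64 to 10.83 after gamma rays and 11.77 to 11.89 after carbon ions, with no overlap. In the metastases they were 12.21 and 12.27, 11.58 and 11.63, and 11.72 and 11.82, in the order unirradiated, gamma and carbon. The ratios were 2.32 ± 0.15, 1.77 ± 0.11 and 1.90 ± 0.11 in the metastases and 1.95 ± 0.14 in the carbon-irradiated primary. After gamma rays they were 0.95 and 0.75, just outside the limit, and the direct ratio of carbon ions over gamma rays was 1.13 and 1.00. That direct call sat on the limit and was lost under median centring, at 1.06, as was the gamma-group call, at 1.5.

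Cyp2j9, of the Cyp2j genes that oxidise arachidonic acid, was higher in both irradiated primaries and in none of the metastases. Cyp2j9 read 8.26 to 8.53 in the unirradiated primary, 9.72 to 9.81 in the gamma-irradiated primary and 10.39 to 10.54 in the carbon-irradiated primary. The ratios were 1.35 and 1.22 after gamma rays and 2.12 and 1.97 after carbon ions, 2.44-fold and 4.12-fold. In the metastases Cyp2j9 had ratios of -0.68 ± 0.07, -0.21 ± 0.00 and 0.28 ± 0.16, none of which was called. Its chromosome 4 neighbours were not called but had positive ratios in the same primaries: Cyp2j6 at 0.49 ± 0.04 and 0.91 ± 0.02, and Cyp2j13 at 0.44 ± 0.21 and 0.71 ± 0.05. In the unirradiated metastasis Cyp2j6 and Cyp2j13 read -0.57 ± 0.13 and -0.44 ± 0.18. The call of Cyp2j9 after gamma rays was lost under median centring, where the mean was 1.33 and 1 orientation fell short.

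Cyp1b1, which hydroxylates oestradiol and is induced by dioxins, was high in 2 of the 3 metastases. Levels were 7.62 and 8.09 in the unirradiated, 7.93 and 8.24 in the gamma-group and 6.62 and 6.83 in the carbon-group metastasis, beside 6.15 to 6.41 in the unirradiated primary. The ratios were 1.56 ± 0.34, 1.78 ± 0.15 and 0.42 ± 0.08, and the primary was above background on 1 of 2 arrays in each of the first 2 comparisons. Through that primary the carbon-group was lower than the gamma-group metastasis by a log2 ratio of -1.36 ± 0.07. A second probe was not measured and read 0.11 in the unirradiated metastasis, and in the mean of both probes these 3 calls were lost, at 0.83, 0.90 and -0.71. Cyp2d10 was higher in the carbon-group metastasis only, at 1.62 and 1.46 over the unirradiated primary and 1.43 ± 0.03 over the unirradiated metastasis. Its second probe read 0.43 over the unirradiated primary, and both calls ended at 0.99 in the mean of the probes.

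Other drug-oxidising families were little detected. Of the Cyp2c genes, Cyp2c37 was above background in 24 and Cyp2c70 in 23 of 24 measurements, and the remaining ones in at most 2. Of the Cyp3a genes, Cyp3a13 was above background in 24, Cyp3a11 in 4 and Cyp3a16 in 2, and the remaining ones in none. Cyp3a13 had positive ratios in the metastases, 0.60, 0.66 and 0.33, and negative ones in the irradiated primaries, -0.52 after gamma rays and -0.82 after carbon ions, none of them called. Cyp1a1, the classic target of the dioxin receptor, was above background in 1 of 24 measurements, and Cyp2e1, which oxidises ethanol, in 2. Cyp2d9 was above background in all 24, with ratios of 0.10 to 0.74 over the unirradiated primary.

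The 10 fatty acid and eicosanoid hydroxylases are the Cyp4 genes other than Cyp4b1, which was counted with the drug-oxidising members. Of those measured, 4 of 6 were higher in the unirradiated metastasis, 1 of 7 in the gamma-group metastasis and 1 of 6 in the carbon-group metastasis. Among all measured genes, 10.4%, 8.80% and 8.19% were higher there. Cyp4f18, which inactivates leukotriene B4 in neutrophils, read 11.94 and 12.01 in the unirradiated metastasis, 10.53 and 10.53 in the gamma-group metastasis, 9.78 and 9.85 in the carbon-group metastasis and 9.60 to 9.88 in the unirradiated primary. Only the first was called over the unirradiated primary, at 2.14 ± 0.02, against 0.79 ± 0.01 and 0.20 ± 0.07. The gamma-group and carbon-group metastases were lower than the unirradiated one, at -1.35 ± 0.00 and -1.94 ± 0.05. In the metastases neutrophil markers moved alongside: 10 of 10, 8 of 10 and 2 of 10 were higher, and their summed level was 18.7 to 19.5, 17.7 to 18.4 and 16.0 to 16.3. In the irradiated primaries 7 were measured. After gamma rays 1 was higher and none lower, with a median of -0.3. After carbon ions 1 was higher and 4 lower, with a median of -1.37. Of all genes, 2.22% and 3.88% were higher and 1.25% and 1.07% lower there. Cyp4f18 was called in neither irradiated primary. Carbon ions over gamma rays gave -0.34 ± 0.03 for Cyp4f18 and a median of -0.79 for the markers. The part of neutrophils in the Cyp4f18 ratios was not tested.

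Cyp4v3, a fatty acid hydroxylase whose human counterpart is mutated in a retinal dystrophy, was the fatty acid enzyme, Cyp4b1 left aside, called in most comparisons. It was higher in all 3 metastases, at 2.29 ± 0.08, 1.62 ± 0.14 and 1.76 ± 0.09, and in the carbon-irradiated primary, at 1.56 and 1.25. After gamma rays it read 0.83 and 0.87, outside the limit. Levels of 7.38 to 7.65 in the unirradiated primary did not overlap those of any other RNA, which began at 8.26. Cyp4a10 and Cyp4f16 were higher in the unirradiated metastasis, at 1.31 ± 0.07 and 1.09 ± 0.08. For Cyp4a10 the gamma-group and carbon-group metastases were lower than the unirradiated one, at -1.13 ± 0.10 and -1.31 ± 0.11. The other probes of Cyp4a10 read -0.48 and -0.09 and that of Cyp4f16 0.43 in the unirradiated metastasis, and the calls of both genes ended in the mean of all probes. Cyp4f13, detected throughout, had ratios of 0.15 to 0.60 over the unirradiated primary and was not called.

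Among the enzymes that break down retinoic acid, Cyp26b1 was the member that fell in the irradiated primaries. It read 9.40 to 9.73 in the unirradiated primary, 8.26 to 8.43 after gamma rays and 8.21 to 8.44 after carbon ions, so both irradiated primaries lay below every unirradiated measurement and overlapped each other. The ratios were -1.10 and -1.38 after gamma rays and -1.08 and -1.52 after carbon ions, and the direct ratio between them was -0.04 ± 0.27. In the unirradiated metastasis it read 1.18 and 0.76, outside the limit. Both calls were lost under median centring, at -1.19 and -1.22, where 1 orientation fell short. Cyp26a1 read 1.31 and 0.99 in the unirradiated metastasis and was not called there, but it was at least 2.17-fold lower in the carbon-group than in the unirradiated metastasis.

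Genes of retinoid handling, a list of 16 with all 16 measured, were higher for 4, 5 and 4 and lower for 1 in each metastasis, and higher for 1 and lower for 2 in each irradiated primary. Among all measured genes, 10.4%, 8.80% and 8.19% were higher and 1.68%, 1.10% and 1.02% lower in the metastases. After gamma rays and carbon ions, 2.22% and 3.88% were higher and 1.25% and 1.07% lower. Medians of the retinoid list were 0.24, 0.15 and 0.16 in the metastases, and 0.35 and 0.23 after gamma rays and carbon ions, beside 0.02 to 0.06 over all genes. The 2 that fell in the irradiated primaries were Aldh1a2, a retinoic acid synthesis enzyme, at -1.17 ± 0.14 and -1.72 ± 0.24, and Crabp1, a retinoic acid binding protein, at -1.52 ± 0.03 and -1.25 ± 0.02.

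In each of the 9 comparisons, 5 of 7 sterol and bile acid, 1 of 5 steroid and 1 of 3 vitamin D members were measured. Of all measured genes, 0.249% to 10.4% were higher and 0.159% to 2.37% lower. None of the sterol, bile acid, steroid or vitamin D members was called in any comparison, which is near those shares for so few measured. The nearest was Cyp51, the lanosterol demethylase of cholesterol synthesis, at -1.02 and -0.93 in the carbon-irradiated primary and -1.12 and -0.77 in the carbon-group metastasis. Its level was 10.87 to 11.14 in the unirradiated primary, 10.65 to 10.83 after gamma rays and 9.96 to 10.09 after carbon ions, without overlap. The direct ratio of carbon ions over gamma rays was -0.73 ± 0.04. In the list of 22 sterol synthesis genes 3 were lower and none higher after carbon ions, namely Hsd17b7 at -1.43, Sc4mol at -1.35 and Lss at -1.22, and the median was -0.54 where that of all genes was 0.02. After gamma rays none was called and the median was -0.08.

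The oxysterol hydroxylases Cyp7b1 and Cyp39a1 and the sterol side-chain hydroxylase Cyp27a1 were above background throughout. Cyp7b1 ranged from 9.83 in the carbon-group metastasis to 10.53 in the unirradiated metastasis, and Cyp39a1 from 9.49 in the unirradiated metastasis to 10.46 in the carbon-irradiated primary (mean levels). Cyp27a1 had ratios of -0.34 to 0.39, and Cyp46a1, the cholesterol hydroxylase of neurons, was detected in 22 of 24 measurements with ratios of -0.18 to -0.02. Cyp17a1, the only steroid-making member detected, had ratios between -0.11 and 0.10. Cyp27b1, which activates vitamin D, was detected in 22 of 24 measurements, and Cyp24a1, which inactivates it, in none. Cyp20a1, a P450 without a known substrate, had ratios from -0.68 to 0.28.

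The partners of the P450 enzymes are given beside the shares of all measured genes that were higher, 10.4%, 8.80% and 8.19% in the unirradiated, gamma-group and carbon-group metastasis and 2.22% and 3.88% after gamma rays and carbon ions. In a list of 11 electron donors and haem synthesis genes, all measured, 2 were higher in the unirradiated metastasis, Alas1 at 1.30 and Cyb5 at 1.16, 1 in each other metastasis and none in the irradiated primaries. P450 reductase (Por) had ratios of 0.16, 0.42 and 0.44 in the metastases and 0.06 and 0.25 after gamma rays and carbon ions. Of 20 xenobiotic receptors and partners, 2 of 16 measured were higher in the unirradiated metastasis (Nr1h3 at 2.25 and Pparg at 1.91), 2 of 15 and 3 of 15 in the other metastases, none of 14 after gamma rays and 1 of 14 after carbon ions (Vdr at 1.14). Conjugating and other detoxifying enzymes, a list of 40, were higher for 13 of 33, 15 of 34 and 11 of 34 measured genes in the metastases and lower for 2, 1 and 1. They were higher for 4 of 29 and 7 of 30 measured genes in the irradiated primaries and lower for 1 in each. Their medians were 0.45, 0.87, 0.42, 0.27 and 0.33 in that order, beside 0.02 to 0.06 over all genes. Gsta3, a glutathione transferase, was higher after gamma rays at 1.39 ± 0.08 and after carbon ions at 2.64 ± 0.09, and higher after carbon ions than after gamma rays in the direct comparison at 1.16 ± 0.03.

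Between metastases the ratios were taken through the unirradiated primary, which both share. As differences matched by dye, they lose a dye bias that a probe has on both arrays. Their SDs are therefore not comparable with direct ones. The median SD over all measured genes was 0.049 to 0.058 here, against 0.107 to 0.129 in the direct comparisons. In the gamma-group over the unirradiated metastasis 2 of 39 measured members were higher and 2 lower, 5.13% each, against 1.85% and 1.40% of 17478 genes. The first pair was Cyp2a5 and Cyp2f2, and the second Cyp4f18 and Cyp4a10. In the carbon-group over the unirradiated metastasis 4 of 37 were higher and 3 lower, 10.8% and 8.11%, against 1.85% and 2.37% of 16850 genes. These were Cyp2a5, Cyp2d10, Cyp2f2 and Cyp2s1, and Cyp4f18, Cyp26a1 and Cyp4a10. In the carbon-group over the gamma-group metastasis 1 of 39 was lower, Cyp1b1, and none higher, 2.56% against 1.06% lower and 0.249% higher of 17257 genes.

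For Cyp2f2 this route through the primary gave other values than the levels. The ratios were 1.20 ± 0.09 for the gamma-group and 1.27 ± 0.04 for the carbon-group over the unirradiated metastasis, whereas the levels in the same dye differed by 2.82 ± 0.08 and 3.34 ± 0.12. Both calls were lost under 3 other treatments of the signal, with means of 0.87 to 1.04. Cyp2a5 gave 1.92 and 2.00 by the 2 routes in the gamma-group, and Cyp4f18 -1.35 and -1.45. For Cyp2b9, Cyp2b10 and Cyp2b13 the levels given above fell further than the ratios in both treated groups.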

How the data were processed

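RNA of 6 conditions, 1 RNA each, was measured on 12 two-colour Agilent arrays. Arrays were scanned and quantified by the authors with Agilent Feature Extraction 9.1.3.1, per the file headers, and the genome build of the array design is not given in the sources used here. The deposited scanner files hold, per the file headers, an intensity for each spot and dye (the mean signal and the background median), quality flags and Agilent's log10 ratio of red over green. The deposited value table holds the same log10 ratios, equal to those of the scanner files within 0.005 in 12 of 12 columns. Dyes were assigned to RNAs per the labels.

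Mean signals were background-corrected with normexp (offset 50) and normalised within each array by loess in limma 3.58.1 (R 4.3.3). Control spots had weight 0 in the loess and were left out, as were 16 to 58 spots an array flagged as outliers. No spot was saturated. Spots were averaged for each probe and the brightest probe stood for a gene, and ratios were turned by dye so that each has the same numerator on both arrays. Levels were single-channel values after Aquantile normalisation between arrays. The 3 comparisons between metastases were differences of ratios over the unirradiated primary, matched by dye. No p-value was computed, since no condition had a second RNA, and the number of arrays limits the precision.

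All called members are named, with the detected steroid, sterol, vitamin D and retinoic acid members, up to 4 genes by size of a list in a comparison and the closest members outside the limit. The reductase Por, Scgb1a1 and the marker genes printed beside Cyp2f2, and Cyp2j6, Cyp2j13, Cyp3a13, Cyp2d9, Cyp4f13 and Cyp20a1, were chosen after their values were seen. The members and gene lists were chosen with earlier results of these data known. The 8 other settings tried were a normexp offset of 0, Agilent's processed ratio, median centring in place of loess, both RNAs above background, no filter, the mean of all probes of a gene, and each dye orientation alone. A comparison of metastases by their levels in the same dye was added after seeing the data. The calling steps were tested on simulated data. Array names were matched to RefSeq's GRCm38.p6 for 71 members, 64 by accession and 7 by symbol; Cyp2c44, Cyp3a41 and Cyp4a12 are now Cyp2c23, Cyp3a41a and Cyp4a12a there. Start regions come from the same RefSeq release. Tables were handled in Python 3.11.15 with numpy 2.4.6 and pandas 2.3.3.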

Additional observations from a re-analysis of the deposited data

Results flagged for a closer look

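Cyp4b1 had log2 ratios of opposite sign for carbon ions in the primary and in the metastasis. The carbon-irradiated primary was above the unirradiated primary by 1.95 ± 0.14, and the carbon-group metastasis read -0.43 ± 0.03 over the unirradiated metastasis, which was not called (SD over 2 dye orientations, 1 RNA a condition). Cyp4v3 read 1.41 ± 0.22 in the primary and -0.53 ± 0.01 in the metastasis, the second not called. The signs were the same for gamma rays, with no value called: Cyp4b1 read 0.85 ± 0.15 in the primary and -0.55 ± 0.03 in the metastasis, and Cyp4v3 0.85 ± 0.03 and -0.66 ± 0.07. Both orientations had the same sign in each case. SDs of the metastasis ratios, which are differences matched by dye, are not comparable with those of the primary. The difference between primary and metastasis was not tested.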

How the results depend on the processing

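Of 51 calls of a member in a comparison, 23 held under every alternative, 28 were lost or not measured under at least 1, and 0 reversed. Counts of called members moved by more than 1.5 times in these cases. With both RNAs required above background, 5 members in place of 9 were called in the gamma-group metastasis and 5 in place of 8 in the carbon-group metastasis. Fewer members are testable there, since members dim in the primary leave. Median centring gave 1 in place of 3 after gamma rays, 0 in place of 2 for carbon ions over gamma rays, and 2 in place of 4 for the gamma-group over the unirradiated metastasis. The last comparison gave 7 with Agilent's processed ratio. The carbon-group over the unirradiated metastasis gave 4 in place of 7 with the mean of all probes. The carbon-group over the gamma-group metastasis, with 1 call, gave 2 with offset 0, 3 with Agilent's ratio, 0 with the mean of all probes, 2 with the numerator in Cy3 only and 2 with levels. Beyond the construction named for the first, the cause was not tested. No paired analysis was possible because each condition had 1 RNA, with the same replicate number, and no result came from a test. No replicate could be left out for the same reason. Dim probes near background limit all ratios of members that the primary hardly expressed, and close gene copies may share signal.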

Other observations

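Thromboxane synthase (Tbxas1) and prostacyclin synthase (Ptgis) are P450 enzymes of prostaglandin metabolism whose names do not begin with Cyp. Tbxas1 was higher than in the unirradiated primary in all 3 metastases, at 2.14 ± 0.26 in the unirradiated, 1.30 ± 0.27 in the gamma-group and 1.79 ± 0.28 in the carbon-group metastasis. Ptgis was higher in the unirradiated metastasis, at 3.05 ± 0.11, and in the gamma-group metastasis, at 1.14 ± 0.14, and read 0.99 ± 0.03 in the carbon-group metastasis. Through the unirradiated primary, Ptgis was lower in the gamma-group and carbon-group than in the unirradiated metastasis, at -1.90 ± 0.25 and -2.06 ± 0.08. In the irradiated primaries Tbxas1 read 0.19 ± 0.20 after gamma rays and 0.62 ± 0.04 after carbon ions, and Ptgis was not measured.

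Carboxylesterases, which split drug esters, differed by gene. Ces3 was higher in all 3 metastases, at 4.06 ± 0.01, 4.39 ± 0.03 and 4.44 ± 0.02, and was not measured in the irradiated primaries. Ces1 was lower in all 5 RNAs, at -3.23 ± 0.06, -3.21 ± 0.09 and -2.17 ± 0.08 in the metastases, -1.78 ± 0.00 after gamma rays and -1.97 ± 0.06 after carbon ions. The glutathione transferase Gstm1 was higher in all 5, from 1.13 ± 0.09 after gamma rays to 2.58 ± 0.08 in the gamma-group metastasis. Markers of ciliated airway cells were higher for none of 3 measured in the unirradiated metastasis and for 5 of 6 in each of the other two.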
